A study of Homo sapiens with 18 samples.

Results

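HT29 cells kept in PLX4720 were compared between the day 1 and day 3 arrays, which asks how RNA levels moved while the inhibitor stayed in the medium. HT29 is an established human colorectal cancer line, and PLX4720 is a small molecule that blocks RAF kinases. The comparison used 4 of the 18 arrays of the series, chosen by their labels: 2 of HT29 with 3 µM PLX4720 at day 1 and 2 at day 3. All cultures grew in Matrigel, a gel of basement membrane proteins, and inhibitor or solvent was added from culture day 5. The labels do not say from when their days count, and they are taken here as days since that addition. Set beside them were 4 HT29 arrays of the same days in the solvent DMSO, the 4 HT29 arrays of day 8, and 2 Colo-205 arrays (PLX4720, days 1 and 3, 1 array a day) from a second colorectal cancer line. The series describes the HT29 arrays of a group as biological duplicates. Every group rests on 1 cell line in gel culture, with no other cell type added per the labels.

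RAF kinases pass growth signals from the cell surface to the kinases MEK and ERK, and ERK switches on genes for growth and for its own brakes. Colon epithelium also carries an antiviral program: interferons bind receptors on the cell, kinases of the JAK family activate a transcription factor complex that holds IRF9, and this complex binds a short promoter element, the interferon-stimulated response element (ISRE). The genes switched on this way encode proteins that block viruses, sense foreign RNA and present antigens.

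The ISRE is shown first because the genes with the largest rises turned out to be interferon response genes. RefSeq promoter windows of build GRCh38.p14 (250 bases before to 50 after the start of a gene) were searched for its core, GAAANNGAAA, and for the reverse complement, TTTCNNTTTC. In the 5 stretches shown, each from upstream of the start and written 5′ to 3′ on the gene's strand, capitals mark the core in either orientation.
IFI44L, chr1:78620345-78620414, plus strand: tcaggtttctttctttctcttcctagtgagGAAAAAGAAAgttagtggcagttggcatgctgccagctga
IFI27, chr14:94110611-94110680, plus strand: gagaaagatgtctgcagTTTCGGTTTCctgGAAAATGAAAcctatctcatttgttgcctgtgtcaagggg
IFITM3, chr11:320861-320925, minus strand: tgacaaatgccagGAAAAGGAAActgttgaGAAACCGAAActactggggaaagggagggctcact
IFIT1, chr10:89392490-89392559, plus strand: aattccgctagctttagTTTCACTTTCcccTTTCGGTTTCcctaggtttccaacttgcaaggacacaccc
ISG15, chr1:1013360-1013429, plus strand: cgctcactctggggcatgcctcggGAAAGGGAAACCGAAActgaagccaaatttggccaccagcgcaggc
IFI27, IFITM3 and IFIT1 show 2 separate cores, and in ISG15 a pair of cores overlaps.

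Between 18608 and 19174 of 47323 probes (39.3% to 40.5%) were above background (detection p under 0.01) on the 4 PLX4720 arrays, whose median raw intensity lay between 108 and 111. The replicates correlated at a Pearson r of 0.989 across probes at day 1 and 0.991 at day 3. With 2 arrays a group, precision is limited: over all genes, the log2 day change had a standard error (SE) of 0.18 at the median. Levels below are normalized log2 intensities of 1 probe a gene and are compared only within a gene. Changes are day 3 minus day 1 on that scale ± SE, with adjusted p-values from limma over 12675 genes and a threshold of 0.05. A gene is said to have risen or fallen only where it passed. In whole cultures, more cells of a kind and more RNA per cell cannot be told apart. The epithelial markers EPCAM (12.90 and 12.85 at day 1, 13.02 and 12.87 at day 3) and KRT19 were bright, and 0 of 10 epithelial markers were called. CDX2, an intestinal transcription factor among them, was above background on 0 of 2 day 1 arrays and on both at day 3. Of 12 markers of connective tissue, immune and vessel cells, 6 entered the test and 0 were called.

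From day 1 to day 3 under PLX4720, 295 genes rose (2.33% of those tested) and 115 fell (0.907%), 410 in all (3.23%). Rises were larger than falls: 171 genes rose at least 2-fold (1.35%) and 28 fell at least 2-fold (0.221%), and the median change was 1.09 among the genes that rose and -0.78 among those that fell. At an unadjusted p under 0.05 there were 2139 genes. The number rests on every array: without the first or second day 1 array 198 and 200 genes were called, and without the first or second day 3 array 162 and 147. Without background correction 723 genes were called, of which 60.4% had risen, against 72.0% in the main setting.

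A list of 27 interferon response genes was followed, and of the 12 largest rises 8 were those of its members. The others were MX2, UBE2L6, HLA-B and EPSTI1, which the list does not hold, so the 8 count list members only. All 25 list genes with a named probe rose from day 1 to day 3, against 2.33% of all genes tested. Their median change was 2.48, against 0.00 over all genes. The list's median level was 7.83 and 7.89 on the day 1 arrays and 10.4 and 10.6 on the day 3 arrays. On each of the 4 arrays all 25 were above background, and every gene's day 3 arrays stood above its day 1 arrays, as those of 24.6% of all genes did. The list was written with earlier results of these data known, and members beyond its 4 largest rises were picked for the text after their values were seen. Leaving out the second day 3 array left 24 of the 25 past the threshold, and leaving out any other 1 of the 8 arrays of days 1 and 3 left 25.

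IFI44L, an interferon-induced gene of the family of IFI44, had the largest rise. It read 5.29 and 5.33 at day 1 and 10.28 and 10.15 at day 3, a change of 4.90 ± 0.18 (adjusted p = 4.19e-06), or 29.9-fold. IFI27, a small mitochondrial protein gene of the same response, went from 7.91 and 7.97 to 12.70 and 12.59 (4.70 ± 0.24, adjusted p = 8.05e-06). IFITM1, a membrane protein that hinders virus entry, went from 4.96 and 5.24 to 9.71 and 9.73 (4.62 ± 0.23). In all 3 genes the gap between days was many times the gap between replicates. IFITM3, which acts like IFITM1, rose by 3.76 ± 0.15 and IFITM2 by 3.17 ± 0.16, and these near-identical genes may share signal on a probe.

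Antiviral enzymes and GTPases were among the members. OAS2, which makes a messenger that activates RNA decay, read 6.99 and 6.41 at day 1 and 11.08 and 10.91 at day 3 (4.29 ± 0.20). Its relatives OAS3 (2.19 ± 0.14) and OAS1 (1.61 ± 0.19) rose too. The GTPase gene MX1 went from 8.68 and 8.35 to 11.99 and 11.97 (3.46 ± 0.17), and MX2, which lies outside the list, from 4.85 and 5.14 to 8.73 and 8.62 (3.68 ± 0.15). IFIT1, which binds viral RNA caps, rose by 2.86 ± 0.14, IFIT3 by 2.45 ± 0.17 and IFIT2 by 2.05 ± 0.20. ISG15, a ubiquitin-like tag, went from 9.92 and 10.24 to 12.34 and 12.32 (2.25 ± 0.14). UBE2L6, the enzyme that carries ISG15 to its targets, rose by 3.66 ± 0.16 and is not in the list. The smallest rise of the list was that of BST2, a tether that holds virus particles at the cell surface (1.16 ± 0.12, adjusted p = 0.000757).

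**Figure D1:**
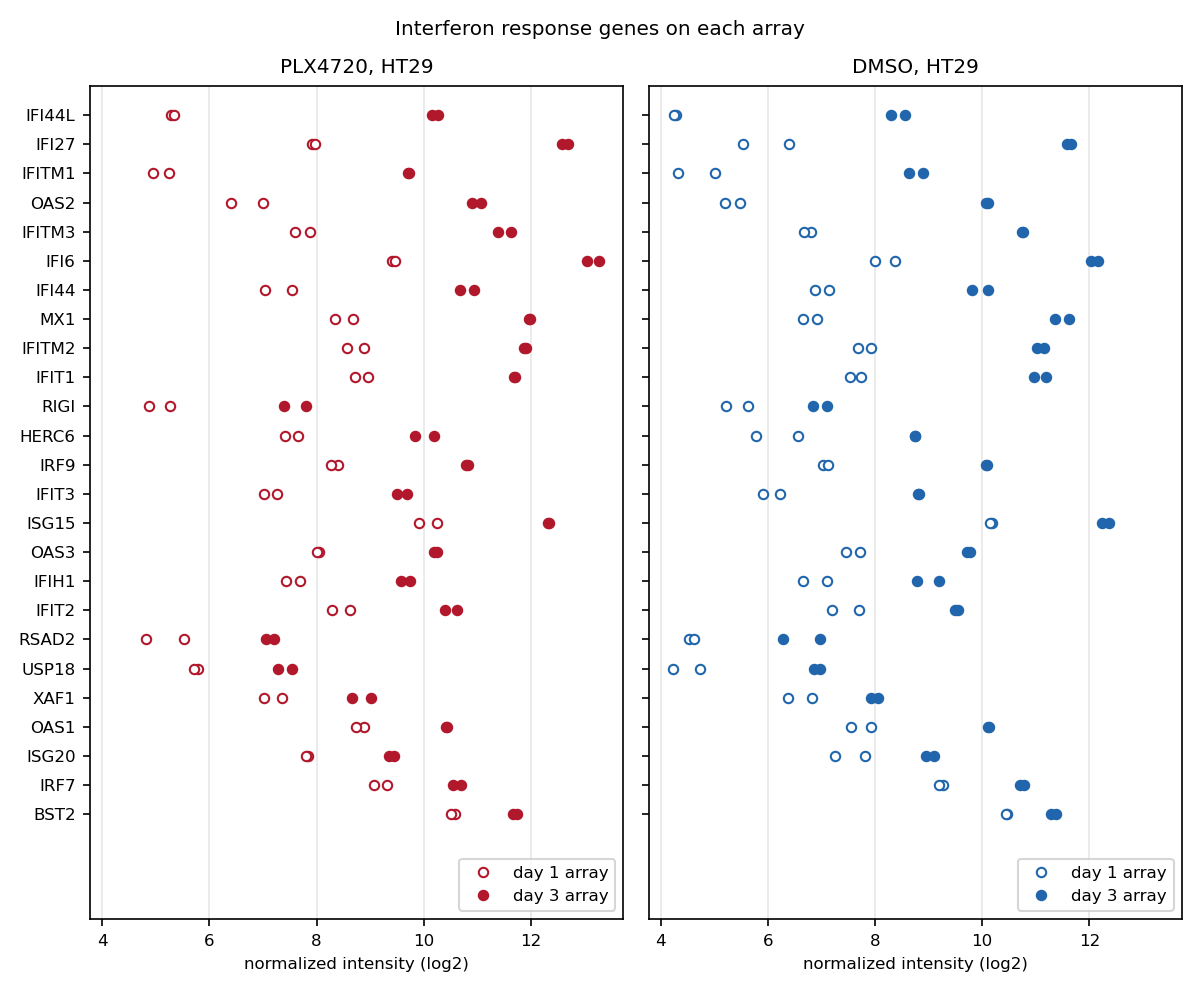
Normalized log2 intensity (x axis) of the 25 interferon response genes (y axis, ordered by their PLX4720 day change) on each HT29 array of day 1 (open points) and day 3 (filled points), with PLX4720 on the left and DMSO on the right. In both panels each gene's day 3 arrays lie to the right of its day 1 arrays, and IFI44L with PLX4720 moves from 5.29 and 5.33 to 10.28 and 10.15.

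The parts of the pathway upstream of these genes were looked up in a second list of 31 genes, chosen after the values were seen. Of the interferon genes, IFNA1, IFNL2, IFNL3, IFNG and IFNK were above background on 0 of the 12 HT29 arrays. IFNE, interferon epsilon, was above background on all 12, and averaged 7.08 at day 1 and 6.33 at day 3, a difference of -0.75 ± 0.24 that did not pass (adjusted p = 0.139). IFNL1 was above background on 0 of the 4 PLX4720 arrays. IFNB1, the gene of interferon beta, averaged 4.35 at day 1 and 4.88 at day 3, was above background on 0 and 1 of 2 arrays, and its change of 0.53 ± 0.14 did not pass (adjusted p = 0.0833). In DMSO IFNB1 was likewise above background on 0 and then 1 of 2 arrays, and there it rose, by at least 1.29-fold (adjusted p = 0.0429). None of the 6 receptor chains passed, and IFNAR1 differed by 0.47 ± 0.17 (adjusted p = 0.201). The kinases JAK1, JAK2 and TYK2 did not pass either. The transcription factors IRF9 (8.39 and 8.27 to 10.79 and 10.82, 2.48 ± 0.12) and IRF7 (1.44 ± 0.14) rose, while IRF1 (0.53 ± 0.17, adjusted p = 0.146) and IRF3 (-0.25 ± 0.14, adjusted p = 0.406) did not pass. Of the sensors of foreign RNA and DNA and their adaptors, RIGI (2.53 ± 0.21), IFIH1 (2.10 ± 0.19) and STING1 (1.07 ± 0.14) rose. MAVS and CGAS did not pass. USP18, which removes ISG15 and damps the receptor, rose by 1.65 ± 0.18.

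Genes of antigen presentation on MHC class I rose in part, 7 of 13 against 2.33% of all genes. HLA-B, a class I heavy chain, read 4.37 and 4.34 at day 1 and 7.77 and 7.42 at day 3. It was not above background on the day 1 arrays, so that the rise is at least 8.50-fold (adjusted p = 0.000304), and HLA genes are alike enough that probes may share signal. PSMB9, a subunit of the immunoproteasome, went from 4.86 and 5.54 to 7.49 and 7.17 (2.13 ± 0.22). TAP1 (1.88 ± 0.21) and TAP2 (1.38 ± 0.12), which pump peptides to the class I molecule, rose too. B2M, the light chain, rose from 12.57 and 12.62 to 13.38 and 13.33 (0.76 ± 0.11), a call lost when either day 3 array was left out (adjusted p up to 0.0609). In all 13 genes both day 3 arrays stood above both day 1 arrays, against 24.6% of all genes. In DMSO 5 of the 13 rose, against 2% of all genes, among them PSMB9, TAP1 (1.80), TAP2 (0.74) and B2M (0.61), and in 11 the day 3 arrays stood above, against 22.7%. HLA-B was likewise above background in DMSO on 0 of 2 day 1 arrays and on both at day 3, and its change there did not pass (adjusted p = 0.129). The difference between the 2 day changes was called for 0 of the 13 genes, with HLA-B at an adjusted p of 0.0970.

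Of 12 chemokine and NF-kB target genes 5 rose, against 2.33% of all genes. CXCL10, a chemokine that draws T cells and is also induced by interferon, went from 5.46 and 5.58 to 8.59 and 8.45 (3.00 ± 0.24, adjusted p = 0.000186). The cytokine gene IL32 was not above background at day 1 and rose at least 3.88-fold. The neutrophil chemokine CXCL8 (7.24 and 7.75 to 9.22 and 8.79, 1.51 ± 0.34, adjusted p = 0.0469) and the chemokine CCL20 (5.47 and 5.21 to 6.54 and 6.58, 1.22 ± 0.23) rose as well. Leaving out any 1 of the 4 PLX4720 arrays ended the calls of CXCL8 (adjusted p up to 0.227) and CCL20 (up to 0.139). In DMSO 1 of the 12 rose, against 2% of all genes. It was CXCL10 (1.79, adjusted p = 0.00480), whose difference between the 2 day changes was 1.21 ± 0.34 (adjusted p = 0.224). The difference was called for 0 of the 12.

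The interferon response genes also rose in the solvent cultures. From day 1 to day 3 in DMSO, 253 genes rose (2%) and 40 fell (0.316%), 293 in all (2.31%). All 25 list genes were among those that rose, with a median of 2.58. The list's median level in DMSO was 7.02 and 6.67 on the day 1 arrays and 10.1 and 9.82 on the day 3 arrays, so that at both days it lay below that of the PLX4720 arrays. For 0 of the 25 did the difference between the 2 day changes pass the threshold. The differences ran from -1.24 ± 0.24 for MX1 (95% interval -1.77 to -0.71, adjusted p = 0.110) to 0.98 ± 0.30 for RIGI (adjusted p = 0.264), with a median of -0.10. Of the 25 genes 21 were above background on each DMSO day 1 array. IFI44L was above background on neither, so its DMSO rise is at least 14.6-fold and the size of its difference was not measured. By day 8 the list's median read 9.74 and 9.82 with PLX4720 and 11.6 and 11.3 in DMSO, the first below and the second above the day 3 arrays of the same treatment.

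The PLX4720 and DMSO day changes come from different arrays and share only the estimate of the spread. Of the 295 genes that rose with PLX4720, 109 also rose in DMSO, which is 36.9% of the first set and 43.1% of the second. Of the 115 that fell, 7 also fell in DMSO (6.09% of the first set, 17.5% of the second). The genes that fell with PLX4720 had a median of -0.15 in DMSO. Across all 12675 genes the 2 day changes correlated at a Pearson r of 0.41, a description over genes that are not independent. SPINK1, a secreted trypsin inhibitor, is an example of a shared rise: it read 10.87 and 11.10 at day 1 and 12.75 at both day 3 arrays with PLX4720 (1.76 ± 0.14, adjusted p = 0.000209), and rose by 1.84 in DMSO from a far lower level, 6.03 and 6.25. The difference between its 2 changes was -0.08, with an interval of -0.53 to 0.38. The alcohol dehydrogenase genes ADH1A (2.09 ± 0.14, DMSO 2.56) and ADH1C (2.09 ± 0.18, DMSO 2.71) rose in both too, and as close relatives they may share signal.

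**Figure D2:**
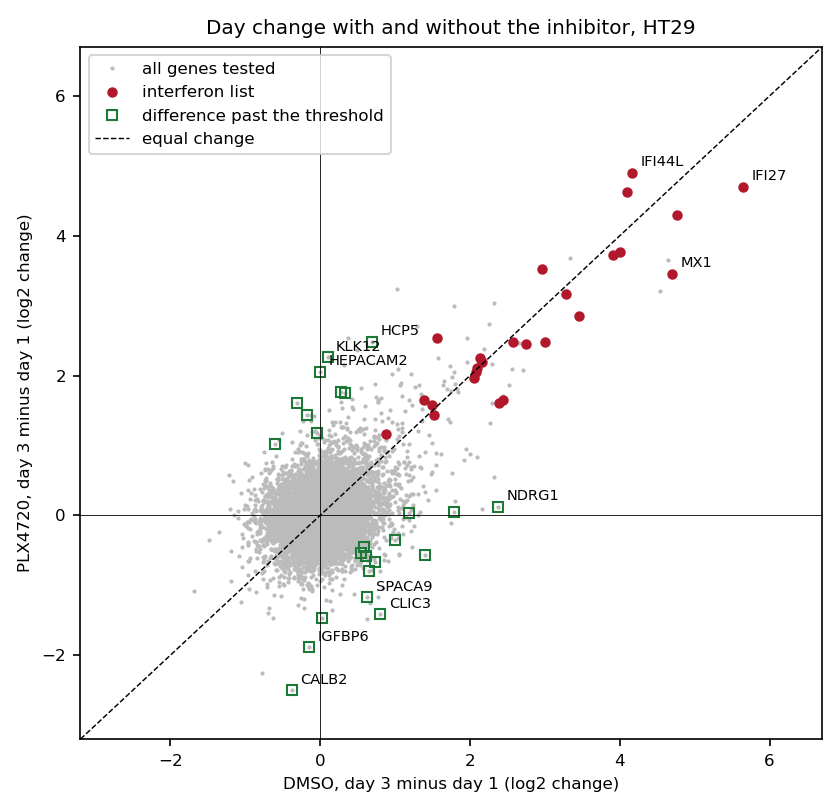
Log2 day change (day 3 minus day 1) of each of the 12675 genes tested in HT29, in DMSO on the x axis and with PLX4720 on the y axis. Red points are the 25 interferon response genes, open squares the 24 genes whose 2 day changes differed, and the dashed line marks equal change. The interferon genes lie along the dashed line, while CALB2 (-2.50 with PLX4720, -0.38 in DMSO) lies far below it.

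The test of the difference between the day changes called 24 genes (0.189%), 9 with a more positive change under PLX4720 (0.071%) and 15 with a more negative one (0.118%). At an unadjusted p under 0.05 there were 1487. These calls are fragile. Leaving out any 1 of the 4 PLX4720 arrays left 1 call, leaving out 1 of the 4 DMSO arrays left 2 to 10, and a fit of the 8 arrays of days 1 and 3 alone left 0 (0 of 12675 in limma), while leaving out background correction gave 137. CALB2 stayed past the threshold without any 1 of these 8 arrays, with adjusted p up to 0.0476, and lost the call when probes of a gene were averaged. KLK12, HEPACAM2, TUBB3, HCP5, ARRDC4, ZBP1, CLIC3, SPACA9, IGFBP6, LGALS1 and ANXA9, described next, each lost the call of a difference when any 1 of the 4 PLX4720 arrays was left out, and without at least 1 of the DMSO arrays, with adjusted p up to 0.172 (HCP5).

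Among genes that rose more with PLX4720, KLK12, a secreted serine protease, read 6.17 and 6.43 at day 1 and 8.49 and 8.66 at day 3 with PLX4720. In DMSO it read 4.88 and 4.59, then 5.11 and 4.56, and the difference between the changes was 2.17 ± 0.31 (adjusted p = 0.0403). HEPACAM2, a cell surface protein of the immunoglobulin family that is found in goblet cells, was not above background at day 1 and read 6.22 and 6.61 at day 3, a rise of at least 3.76-fold. It was above background on 0 of the 4 DMSO arrays. The difference was called (adjusted p = 0.0269), but 3 of the 4 groups behind it held no value above background, so its size was not measured. TUBB3, a tubulin known from neurons, went from 5.64 and 5.36 to 7.38 and 6.82 with PLX4720, and read 7.42 and 7.22, then 7.04 and 6.98 in DMSO (difference 1.91 ± 0.28, adjusted p = 0.0444). PLX4720 thus began below DMSO in TUBB3 and met it at day 3.

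HCP5, a noncoding RNA from the MHC region, went from 4.96 and 4.68 to 7.35 and 7.26 with PLX4720 (2.49 ± 0.18), where it was above background on 1 of 2 day 1 arrays. In DMSO it was above background on 0 of 2 arrays at day 1 and on both at day 3 (5.30 and 5.41), and that change did not pass. The difference was called (adjusted p = 0.0403), and its size is open to the values at background. ZBP1, a sensor of unusual nucleic acids and itself inducible by interferon, was not above background at day 1 and rose at least 2.43-fold. In DMSO it was above background on 1 of 2 arrays at each day, so that the called difference (adjusted p = 0.0284) has no measured size. By day 8 ZBP1 was back to 4.86 and 4.69 with PLX4720 and stood at 6.27 and 6.26 in DMSO. ARRDC4, an arrestin-like protein that restrains glucose uptake, rose from 7.06 and 6.99 to 8.24 and 7.84 with PLX4720, while its DMSO change was -0.60 (difference 1.61 ± 0.22, adjusted p = 0.0400).

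**Figure D3:**
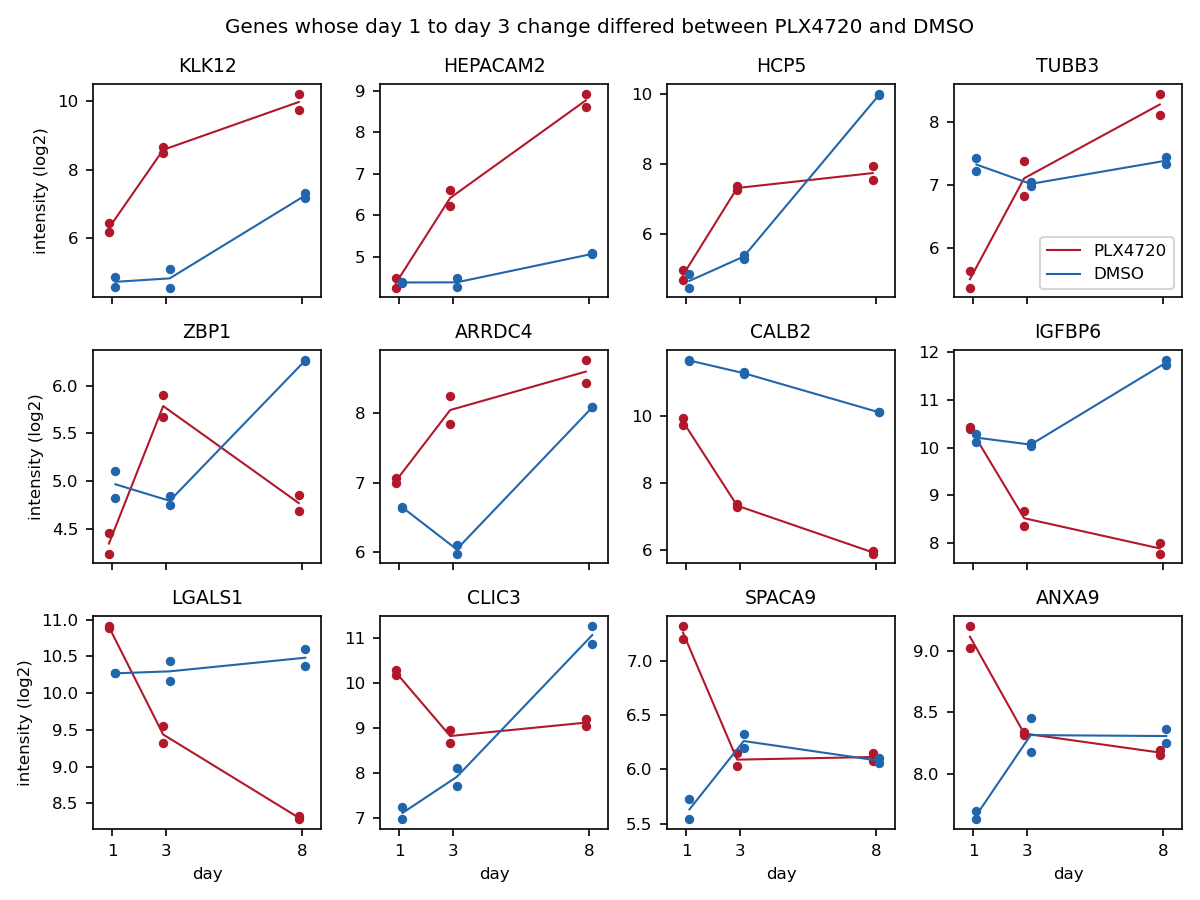
Normalized log2 intensity (y axis, its range set for each gene) against day (x axis) for 12 genes whose day 1 to day 3 changes differed between the treatments in HT29. Points are single arrays and lines join the means of 2, with PLX4720 in red and DMSO in blue. CALB2 with PLX4720 drops from 9.94 and 9.73 to 7.28 and 7.38, while its DMSO arrays stay between 11.25 and 11.66 over these days.

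CALB2, which encodes the calcium-binding protein calretinin, had the largest fall of all. It read 9.94 and 9.73 at day 1, 7.28 and 7.38 at day 3 and 5.91 and 5.98 at day 8 with PLX4720. The day change was -2.50 ± 0.11 (adjusted p = 6.14e-06), and in DMSO it was -0.38, not past the threshold (difference -2.13 ± 0.16, adjusted p = 0.00361). IGFBP6, a binding protein of insulin-like growth factors, went from 10.40 and 10.42 to 8.68 and 8.37 (-1.89 ± 0.14), against 10.12 and 10.30, then 10.10 and 10.03 in DMSO (difference -1.74 ± 0.20, adjusted p = 0.0269). LGALS1, the sugar-binding galectin 1, went from 10.88 and 10.92 to 9.55 and 9.33 (-1.46 ± 0.14) and had a DMSO change of 0.03 (difference -1.49 ± 0.20, adjusted p = 0.0307). In all 3 the PLX4720 arrays stood lower still at day 8.

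CLIC3, of the chloride intracellular channel family, went from 10.29 and 10.19 to 8.68 and 8.97 with PLX4720 (-1.42 ± 0.20), while it read 7.25 and 6.97, then 7.71 and 8.12 in DMSO (difference -2.22 ± 0.28, adjusted p = 0.0284). Its fall missed the threshold without the first day 3 array (adjusted p = 0.0524). A further 5 genes, singled out after their values were seen, fell with PLX4720 and rose in DMSO: SPACA9, ANXA9, ALDH6A1, MXD3 and TH. SPACA9 went from 7.33 and 7.20 to 6.03 and 6.15 with PLX4720 and from 5.72 and 5.54 to 6.33 and 6.20 in DMSO (difference -1.81 ± 0.17, adjusted p = 0.0119). ANXA9, an annexin, went from 9.21 and 9.03 to 8.32 and 8.34 with PLX4720 and from 7.62 and 7.70 to 8.18 and 8.45 in DMSO (difference -1.45 ± 0.18, adjusted p = 0.0284). In both genes the treatments were apart at day 1 and overlapped or nearly so at day 3.

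The other deep falls under PLX4720 were in genes whose difference from DMSO did not pass. CST6, a cysteine protease inhibitor, went from 7.60 and 7.39 to 5.54 and 4.95 (-2.25 ± 0.25, adjusted p = 0.00127). ALDH3A1, an aldehyde dehydrogenase, fell by 1.39 ± 0.15 from 11.17 and 11.01, LRP8, a lipoprotein receptor, by 1.33 ± 0.13 from 10.64 and 10.61, and CDH17, the intestinal liver-intestine cadherin, by 1.28 ± 0.15 from 9.76 and 9.46. LEMD1 (-1.49 ± 0.24), the lipid droplet gene CIDEC (-1.35 ± 0.24), ASNS, which makes asparagine (-1.32 ± 0.21), and the noncoding RNA OLMALINC (-1.25 ± 0.23) fell too. ASNS lost the call without the first day 1 or the second day 3 array, and the other 3 each without 1 of 3 of the PLX4720 arrays, with adjusted p up to 0.119 (OLMALINC).

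ERK output and feedback genes, the direct readout of RAF signalling, rose in 4 of 25 cases and fell in 0, against 2.33% and 0.907% of all genes, with a median change of 0.21. At day 1 the list had a median of -1.01 for PLX4720 minus DMSO, and at day 3 of -0.60. CCND1, the cyclin of G1 phase, read 8.14 and 7.87 at day 1 and 9.17 and 9.13 at day 3 with PLX4720 (1.15 ± 0.13, adjusted p = 0.00131). In DMSO it read 9.91 and 9.77, then 9.93 and 9.75, above the PLX4720 arrays at both days. The difference of its changes was 1.15 ± 0.18 (interval 0.74 to 1.57), with an adjusted p of 0.0595. JUN, an AP-1 subunit (0.92 ± 0.19), SPRY1, a brake on growth factor signals (0.74 ± 0.13), and FGF19, a gut hormone (not above background at day 1, at least 1.76-fold), also rose. In DMSO JUN changed by 0.29, SPRY1 by 0.52 and FGF19 by 0.79, none of them past the threshold. The difference between the 2 day changes was called for 0 of the 25 genes, with SPRY1 at 0.23 ± 0.19 (adjusted p = 0.701). Leaving out any 1 of the 4 PLX4720 arrays ended the calls of JUN (adjusted p up to 0.194), SPRY1 (up to 0.117) and FGF19 (up to 0.239). So did leaving out either DMSO day 3 array for JUN, and any DMSO array for FGF19.

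The phosphatase gene DUSP6, which switches ERK off, read 6.41 and 6.73 at day 1 and 7.14 and 7.0 at day 3, a difference of 0.50 ± 0.17 that did not pass (interval 0.12 to 0.89, adjusted p = 0.171). Its DMSO arrays read 9.03 to 9.29 over the same days. SPRY4 (0.53 ± 0.15), EGR1 (0.57 ± 0.17), FOS (0.61 ± 0.17), MYC (0.28 ± 0.22), ETV5 (0.06 ± 0.11) and ETV4 (-0.45 ± 0.24) did not pass either. Of 17 receptor tyrosine kinases and adaptors 2 rose, against 2.33% of all genes: the fibroblast growth factor receptors FGFR3 (8.31 and 8.06 to 8.95 and 9.10, 0.84 ± 0.14) and FGFR4 (0.52 ± 0.12, adjusted p = 0.0481). In DMSO 2 of the 17 rose, against 2%, neither of them FGFR3 (0.08) or FGFR4 (0.39). The difference between the 2 day changes was called for 0 of the 17. FGFR3 lost the call without 1 of 3 of the PLX4720 arrays, all but the first of day 1 (adjusted p up to 0.123), and FGFR4 without any PLX4720 or DMSO day 3 array (up to 0.249). EGFR was at 0.16 ± 0.14 and ERBB3 at 0.28 ± 0.12, not past the threshold, and 0 of 5 EGF family ligands were called. Of 22 genes of ribosome biogenesis and MYC targets 0 were called, with a median of 0.18 under PLX4720 and of -0.26 in DMSO.

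Few genes of cell division passed the threshold, while most stood lower at day 3. Of 30 mitosis genes 1 fell, against 0.907% of all genes. This was CDKN3, a phosphatase that acts on cyclin-dependent kinases, which went from 10.34 and 10.44 to 9.95 and 9.77 (-0.53 ± 0.12, adjusted p = 0.0473). The list's median was -0.32, and in 26 of 30 genes both day 3 arrays were below both day 1 arrays, as in 24.8% of all genes. In DMSO the median was 0.03 and 4 of 30 did so, where 23.2% of all genes did. Of 31 DNA replication genes 2 fell, against 0.907% of all genes: PRIM1, a primase subunit (-0.65 ± 0.11, adjusted p = 0.0134), and TK1, a thymidine kinase (-0.53 ± 0.12, adjusted p = 0.0441). That list's median was -0.15, against -0.14 in DMSO, and 17 of 31 were lower on both day 3 arrays (14 of 31 in DMSO). The difference between the 2 day changes was called for 0 of the 30 mitosis and 0 of the 31 replication genes. The proliferation marker MKI67 was at 0.27 ± 0.27. CDKN1A, an inhibitor of cyclin-dependent kinases, rose by 0.64 ± 0.15 at the edge of the threshold (adjusted p = 0.0498). Each of these 4 calls was lost without any 1 of the 4 PLX4720 arrays, with adjusted p up to 0.276, and those of CDKN3 and TK1 also without any 1 of the 4 DMSO arrays and that of CDKN1A without either DMSO day 3 array.

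Of 13 goblet cell genes 2 rose, against 2.33% of all genes. FCGBP, a mucus protein, went from 5.87 and 5.53 to 8.40 and 8.45, then to 10.00 and 10.23 at day 8 (2.73 ± 0.20, adjusted p = 0.000112). It also rose in DMSO, where it was not above background at day 1, by at least 4.44-fold. TFF3, a peptide that protects mucosa, went from 7.71 and 8.45 to 10.14 and 10.19 (2.09 ± 0.32, adjusted p = 0.00861). In DMSO it read 5.33 and 6.34, then 6.92 and 6.84, a change of 1.05 that did not pass. Its call was lost without the first day 1 array or either day 3 array, with adjusted p up to 0.0681. The list's median was 0.51, against -0.01 in DMSO, and in 11 of 13 genes both day 3 arrays were above both day 1 arrays, against 24.6% of all genes. In DMSO 5 of 13 were, against 22.7%. The difference between the 2 day changes was called for 0 of the 13 genes, with TFF3 at 1.04 ± 0.46 (adjusted p = 0.420).

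Of 6 enteroendocrine genes tested, SCG5, a chaperone of hormone processing (4.36 and 4.19 to 5.84 and 5.94, at least 2.61-fold), and PAX4, a transcription factor of endocrine cells (4.17 and 4.32 to 4.99 and 5.77, at least 1.83-fold), rose from below background. Over all genes 2.33% rose. In DMSO SCG5 was above background on 0 and then 1 of 2 arrays, and its change did not pass. PAX4 was above background on 0 DMSO arrays of days 1 and 3. The difference from DMSO was called for 0 of the 6 genes. By day 8 PAX4 read 8.12 and 8.41 with PLX4720 and was 4.62 and 4.29 in DMSO. The call of PAX4 at day 3 was lost when any array of days 1 and 3 but the first PLX4720 day 3 array was left out (adjusted p up to 0.160). Of 20 enterocyte genes the intestinal transcription factor CDX1 (4.41 and 4.75 to 5.58 and 5.74, at least 2.03-fold) and the adhesion protein CEACAM1 (0.63 ± 0.12) rose, and both lost the call without any 1 of the 4 PLX4720 arrays (adjusted p up to 0.192 for CDX1, which also lost it without any DMSO array). These 2 of 20 enterocyte genes stood against 2.33% of all genes. CDX1 was above background on 0 DMSO arrays of days 1 and 3. CEACAM1 changed by 0.43 in DMSO, not past the threshold, and its difference was 0.20 ± 0.17 (adjusted p = 0.721). The difference was called for 0 of the 20 genes. KRT20, a keratin of mature colon cells, was at 0.06 ± 0.14. Among stem cell and Wnt target genes, PROM1, a surface glycoprotein, went from 9.78 and 9.94 to 11.12 and 10.92 (1.15 ± 0.15, adjusted p = 0.00348) and also rose in DMSO (1.45). CD44 rose by 0.56 ± 0.12, a call lost without any 1 of the 4 PLX4720 arrays or either DMSO day 3 array (adjusted p up to 0.227), and LGR5 was at 0.37 ± 0.32.

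Of 21 junction genes the pore-forming claudin CLDN2 (6.22 and 7.0 to 7.81 and 8.23, 1.41 ± 0.29) and the sealing claudin CLDN1 (0.91 ± 0.18) rose. Of 13 genes of invasion and matrix contact, MMP7, a matrix protease, rose (9.75 and 9.15 to 10.89 and 10.72, 1.35 ± 0.24), and ADAM19, a membrane protease, fell (6.99 and 6.73 to 5.82 and 6.05, -0.92 ± 0.14, and -0.67 in DMSO). In DMSO MMP7 changed by 0.82, CLDN1 by 0.54 and CLDN2 by 0.37, none of them past the threshold. The difference between the 2 day changes was called for 0 of these 21 and 0 of these 13 genes. BMP2, a bone morphogenetic protein (1.29 ± 0.17), ID2, a target of that pathway (1.14 ± 0.16), and TGFBI (0.69 ± 0.13) rose among 10 BMP and TGF-beta genes. Over all genes 2.33% rose and 0.907% fell. In DMSO 0 of the 10 rose, against 2% of all genes, and their median was 0.26, against 0.10 with PLX4720. The difference was called for 0 of the 10. Of 14 apoptosis regulators PMAIP1, which encodes the BH3 protein NOXA, rose (1.05 ± 0.18). In DMSO 0 of the 14 rose, and the difference was called for 0 of the 14. Except for BMP2, with adjusted p up to 0.0423, each gene named in this paragraph lost the call without at least 1 of the PLX4720 arrays, with adjusted p up to 0.214 (CLDN2). For ID2 that was the second day 3 array alone (adjusted p = 0.0508).

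**Figure D4:**
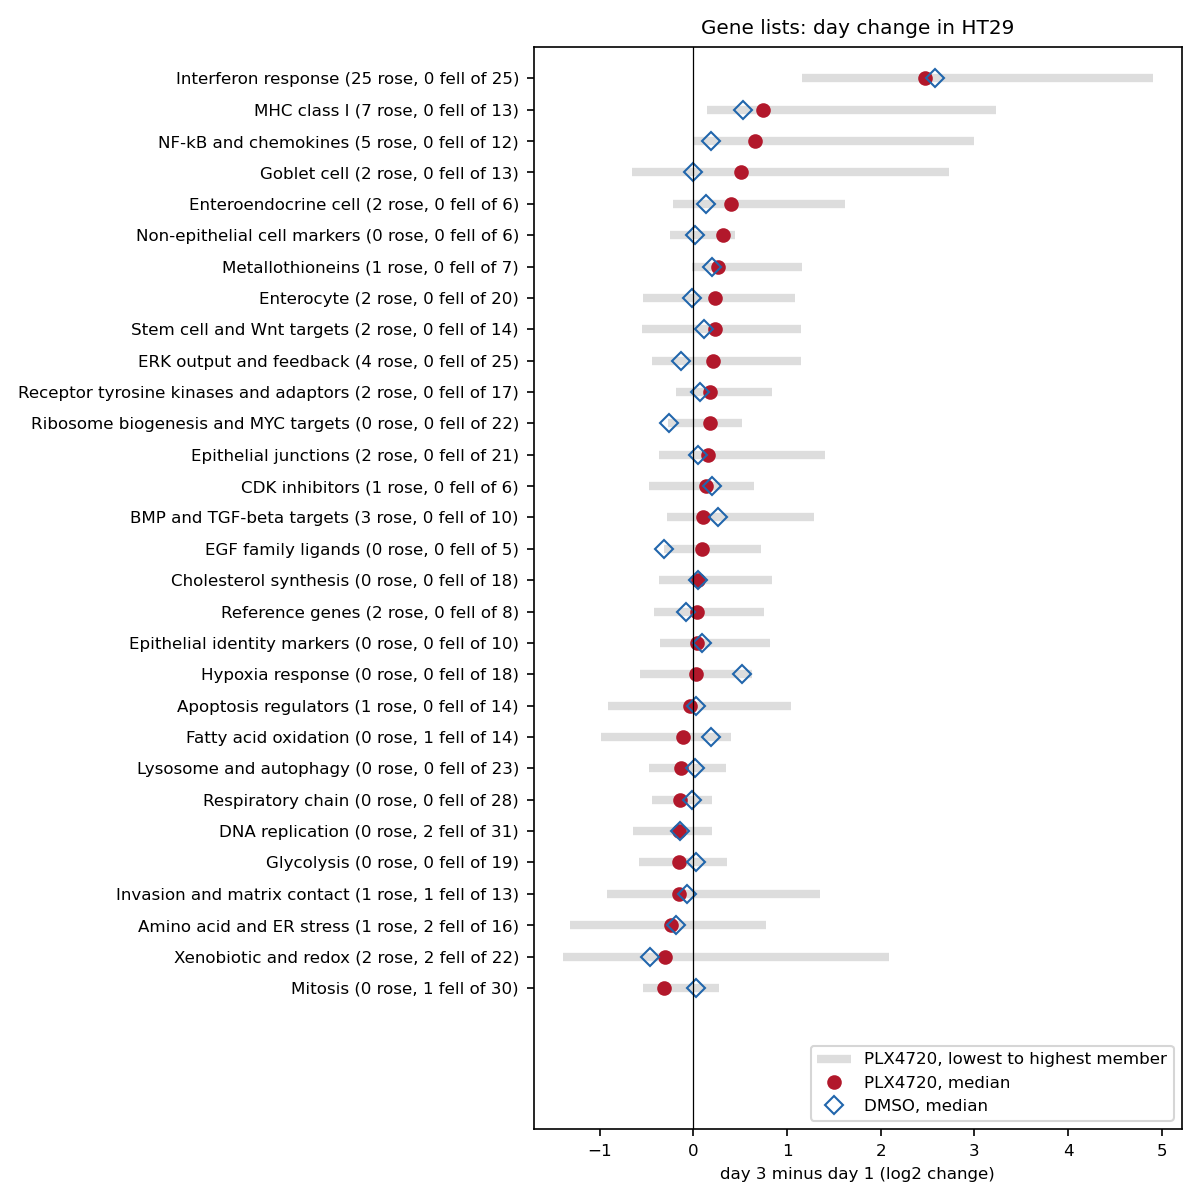
Log2 day change in HT29 (x axis) for 30 gene lists (y axis, ordered by their PLX4720 median, with the number of tested members that rose or fell under PLX4720). Red points are PLX4720 medians, grey bars run from the lowest to the highest member, and blue diamonds are DMSO medians. The interferon list stands apart with medians of 2.48 and 2.58, and the hypoxia list shows 0.03 with PLX4720 and 0.52 in DMSO.

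Genes of the response to low oxygen were called in DMSO and not with PLX4720. Of 18 hypoxia genes, 6 rose in DMSO (median 0.52), against 2% of all genes, and 0 with PLX4720 (median 0.03), against 2.33%. The difference between the changes was called for 2 of the 18, NDRG1 and ANKRD37. NDRG1, a stress-induced gene, read 11.01 and 10.91, then 11.14 and 11.03 with PLX4720, and 7.68 and 7.65, then 9.75 and 10.33 in DMSO (difference -2.25 ± 0.26, adjusted p = 0.0269). It thus stood higher with PLX4720 at both days. ANKRD37 and ALDOC were the other members of the hypoxia and glycolysis lists with a called difference, and were picked on that ground. ANKRD37 read 4.88 and 5.20, then 4.65 and 4.30 with PLX4720, and 5.92 and 5.50, then 7.01 and 7.20 in DMSO (adjusted p of the difference = 0.0403). On the PLX4720 day 3 arrays it was not above background, so the size of the difference was not measured. ALDOC, an aldolase of glycolysis, had changes of 0.05 and 1.79 (difference -1.73 ± 0.26, adjusted p = 0.0452). These 3 differences lost the call without any 1 of the 4 PLX4720 arrays, with adjusted p up to 0.174. Of 19 glycolysis genes 0 were called with PLX4720, and the median was -0.16. The glucose transporter SLC2A1 was at -0.31 ± 0.13 and hexokinase HK2 at -0.25 ± 0.13.

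Among other metabolic lists, amino acid and ER stress genes moved both ways. Beside ASNS, PHGDH of serine synthesis fell (11.34 and 11.20 to 10.46 and 10.49, -0.79 ± 0.11, adjusted p = 0.00606), while the ER chaperone HSPA5 rose (0.78 ± 0.16). With PLX4720 1 of the 16 genes tested rose and 2 fell, against 2.33% and 0.907% of all genes. In DMSO 1 rose and 1 fell, against 2% and 0.316%, and the median was -0.19, against -0.23 with PLX4720. There ASNS changed by -0.68, PHGDH by 0.02 and HSPA5 by 0.04, none of them past the threshold. The difference between the 2 day changes was called for 0 of the 16. CPT1A, which brings fatty acids into mitochondria, fell by 0.98 ± 0.20, the pentose phosphate enzyme PGD by 0.51 ± 0.11, and the metal-binding MT1G rose by 1.16 ± 0.16. With PLX4720 0 of 14 fatty acid oxidation genes rose and 1 fell, and 2 of 22 xenobiotic and redox genes rose and 2 fell. Of 7 metallothioneins 1 rose. In DMSO these counts were 0 and 0, 2 and 5, and 1. The difference was called for 0 genes of these lists. Of 28 respiratory chain genes 0 were called, with a median of -0.15 and 19 of 28 lower on both day 3 arrays, against 24.8% of all genes. In DMSO 6 of 28 were, against 23.2%. Of 18 cholesterol synthesis genes and of 23 genes of lysosome and autophagy 0 were called. Reference genes were not all level: GUSB rose by 0.50 ± 0.11 (adjusted p = 0.0431), B2M as above, and GAPDH was at -0.42 ± 0.11 (adjusted p = 0.0981). Of 8 reference genes 2 rose with PLX4720, against 2.33% of all genes, and 1 in DMSO, against 2%. The difference was called for 0 of the 8. The calls of PHGDH, HSPA5, CPT1A, PGD, MT1G and GUSB were lost without at least 1 of the 4 PLX4720 arrays, and those of PGD and GUSB also without any DMSO array, with adjusted p up to 0.210. For MT1G that was the second day 3 array alone (adjusted p = 0.0503).

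The share of promoter windows with an ISRE core differed between sets of genes, given here as a description with no test. The core was in the windows of 294 of 10089 genes tested (2.91%). It was in 38 of 87 genes that rose both with PLX4720 and in DMSO (43.7%), a set that includes all 25 interferon list genes. Among the genes that rose with PLX4720 and are not in that list, 28 of 206 held it (13.6%). Of the genes that rose with PLX4720 and were not called in DMSO, 4 of 139 held it (2.88%), a share near that of all genes tested. Among the genes that fell 0 of 94 held it, and among the 24 genes whose changes differed 0 of 16. In the interferon list 14 of 20 genes with a window held it (70%), and the 5 stretches shown at the start are among them. A second element, the gamma-activated site TTCNNNGAA, which reads the same on both strands, was in 6.2% of genes tested, 14.9% of the shared risers and 4.32% of those that rose with PLX4720 and were not called in DMSO. A match is a run of letters in a window and says nothing of binding.

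**Figure D5:**
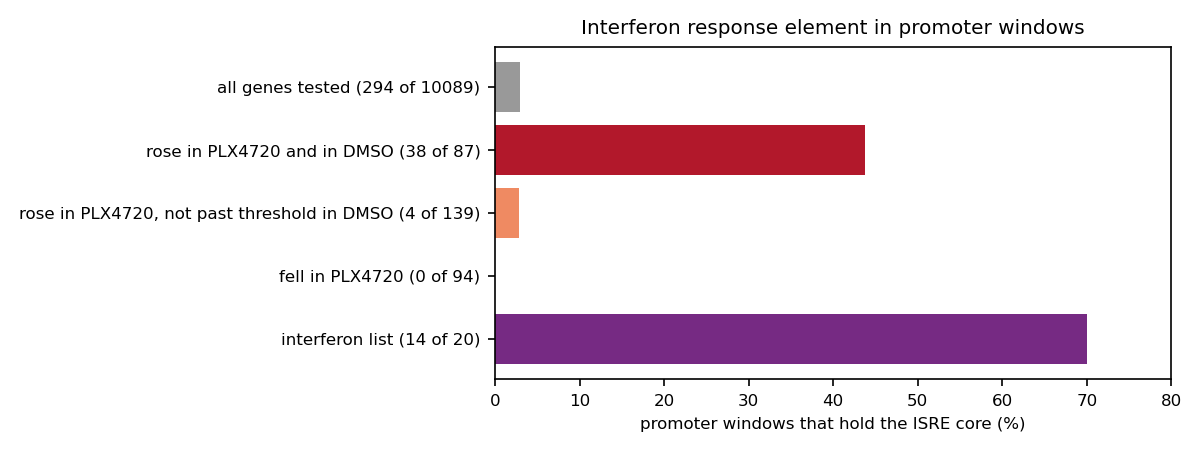
Share of promoter windows (x axis, percent) that hold the ISRE core in either orientation, for 5 sets of genes (y axis, with counts). The bars read 2.91% for all genes tested, 43.7% for genes that rose with PLX4720 and in DMSO, 2.88% for those that rose with PLX4720 and were not called in DMSO, 0 of 94 for genes that fell and 70% for the interferon list. All 25 genes of the interferon list are also in the set that rose with PLX4720 and in DMSO.

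Colo-205 with PLX4720 had 1 array at day 1 and 1 at day 3, so its differences have no replicate check and no test. Of the 335 genes called in HT29 and above background on at least 1 of those arrays, 234 had the same direction (69.9%), against 57.4% of all 10730 genes measured. The share was 65.5% for genes that had risen in HT29 and 79.2% for those that had fallen. With median centring, which moved the median Colo-205 difference of all genes from 0.01 to -0.22, these shares were 46.4% and 91.2%, and that over all calls was 57.8%. Of the interferon list, 21 genes were measured in Colo-205 and 12 had a difference above 0, with a median of 0.02. MX1 differed by -0.69, OAS2 by 0.37 and IFI27 by -0.36 there. In HT29 18 genes had both the PLX4720 change and its difference from DMSO called. The 12 of them with array values given above are followed here. Outside these 12, ALDH6A1 (0.01) and MXD3 (-0.01) were above background on both Colo-205 arrays and TH on neither. Of these 12, 6 were above background on both Colo-205 arrays. LGALS1 (-2.79), CALB2 (-1.13), ANXA9 (-0.45), CLIC3 (-0.10) and HCP5 (0.36) had the same direction as in HT29, and SPACA9 (0.16) the opposite one. KLK12, TUBB3, ARRDC4 and IGFBP6 were above background on 1 of the 2 arrays, where the first 3 lay below 0, opposite to HT29, and IGFBP6 below 0 as in HT29. HEPACAM2 and ZBP1 were above background on neither.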

How the data were processed

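RNA of 18 cultures was hybridised to Illumina BeadChips, and per the labels all 12 HT29 arrays were on 1 BeadChip. Per the file headers, the deposited table paired an intensity (linear scale) with a detection p-value, on 47323 probes and every array. No background correction by the authors is recorded for it. The header of 1 PLX4720 day 8 intensity column carried the word mean, and it was used as 1 array. A second deposited table held the authors' processed intensity values, with no normalization recorded, which correlated at 0.9997 to 1.000 with the raw values after log2. Of the value columns 0 were unmapped. Missing values removed 4 probes.

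Intensities were background corrected with limma 3.58.1 in R 4.3.3 (normexp from detection p-values, offset 16), quantile normalized over 18 arrays and put on the log2 scale. The correction enlarges changes of dim probes. A probe entered when 2 or more of the 12 HT29 arrays detected it (p under 0.01), and each gene took its brightest probe (12675 genes). Of all probes, 30113 had 1 symbol, 8 several and 17202 none in the platform table, with symbols updated through RefSeq's GRCh38.p14 gene table. One lmFit and eBayes fit of 6 group means gave every HT29 comparison, two-sided, with Benjamini-Hochberg adjustment and a threshold of 0.05. For a gene not above background on either array of a day, the fold is a lower bound: the bright group's mean against, per array, the higher of the dim probe's value and the lowest signal among probes above background. The procedure was tested on simulated data.

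Named genes were the 12 largest rises and 12 largest falls among called genes with groups that did not overlap and a probe above background on both arrays of a day, the 6 highest and 6 lowest differences between the day changes among genes called in both, up to 4 called members of each of 30 lists (with the 2 brightest where fewer than 2 were called) and a short fixed set. Of 596 list genes 557 had a named probe and 479 were tested. The comparison, lists and rules were chosen with earlier results of these data known. Replicate numbers were not treated as pairs: the same-numbered PLX4720 arrays of days 1 and 3 deviated together at a correlation of 0.02, with 2 pairs. Alternatives covered background correction, offset, normalization, probe filter, arrays in the fit, moderation, array weights, the replicate block and each of the 8 HT29 arrays of days 1 and 3 left out.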

Additional observations from a re-analysis of the deposited data

Results flagged for a closer look

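The day changes with PLX4720 and in DMSO differed, by the test of the difference itself (limma, adjusted over 12675 genes), in 24 genes. The 15 of them followed here are given as PLX4720 change minus DMSO change. ALDH6A1, MXD3 and TH, also named above, are not among these 15. Above 0 were KLK12 (2.17 ± 0.31, adjusted p = 0.0403), HEPACAM2 (2.05 ± 0.24, adjusted p = 0.0269), TUBB3 (1.91 ± 0.28, adjusted p = 0.0444), HCP5 (1.79 ± 0.26, adjusted p = 0.0403), ARRDC4 (1.61 ± 0.22, adjusted p = 0.0400) and ZBP1 (1.61 ± 0.21, adjusted p = 0.0284). Below 0 were CLIC3 (-2.22 ± 0.28), CALB2 (-2.13 ± 0.16), SPACA9 (-1.81 ± 0.17), IGFBP6 (-1.74 ± 0.20), LGALS1 (-1.49 ± 0.20) and ANXA9 (-1.45 ± 0.18), with adjusted p from 0.00361 (CALB2) to 0.0307 (LGALS1). The fitted differences of HEPACAM2, HCP5 and ZBP1 rest in part on groups with no array above background (both PLX4720 day 1 arrays and all 4 DMSO arrays for HEPACAM2, both DMSO day 1 arrays for HCP5, both PLX4720 day 1 arrays for ZBP1) and are not measured sizes.

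NDRG1 (-2.25 ± 0.26, adjusted p = 0.0269), ANKRD37 (-1.96 ± 0.28, adjusted p = 0.0403) and ALDOC (-1.73 ± 0.26, adjusted p = 0.0452) differed too, and the fitted value of ANKRD37, above background on 0 of 2 PLX4720 day 3 arrays, is not a measured size. Of these 3 the DMSO rise was called and the PLX4720 change was not. In 12 of the 15, all but these 3, the PLX4720 change itself was past the threshold. In SPACA9 and ANXA9 the 2 changes were called in opposite directions, as they were in ALDH6A1, MXD3 and TH outside the 15. All 15 kept their sign in every alternative run, and 14 of them lost the call without at least 1 of the 8 arrays of days 1 and 3, the exception being CALB2.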

How the results depend on the processing

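In the main setting 410 genes were called for the PLX4720 day change, 199 of them at least 2-fold, 293 for DMSO and 24 for the difference, and 69.9% of calls had the same direction in Colo-205. Values that moved past the margins (1.5 times for a count) were as follows. Without background correction there were 723, 80 at least 2-fold, and 137 for the difference. An offset of 50 gave 640, 117 and 82, and the values processed by the authors gave 754, 84 and 136. Trended, robust moderation gave 773, 480 for DMSO and 142 for the difference. The difference had 11 calls with normexp that ignored detection p-values, 13 with a detection p of 0.05 and 13 with no filter, 37 with probes detected on both arrays of either PLX4720 day, and 2 without the day 8 PLX4720 arrays, a setting chosen after seeing the data. The 8 arrays of days 1 and 3 alone gave 194 for DMSO and 0 for the difference (limma), and the 4 PLX4720 arrays alone 158 for the PLX4720 change. With fewer arrays the spread has fewer degrees of freedom, and for the other settings the cause was not tested. Median centring gave a Colo-205 share of 57.8%. Leaving out 1 of the 8 arrays of days 1 and 3 at a time gave 147 to 390 genes for the PLX4720 change, 132 to 201 at least 2-fold, 122 to 251 for DMSO, 1 to 10 for the difference and a Colo-205 share of 63.7% to 70.8%. A lone array was then assumed to vary like the other groups. The replicate block gave 10 for the difference (4 above and 6 below 0) and 414 for the PLX4720 change. The numbers share no stated animal, day or batch, so this block is not a pairing. Calls with a rise made up 72.0% in the main setting, 60.4% without background correction, 61.7% with trended moderation, 86.1% with the 4 PLX4720 arrays and 80% to 88.4% without 1 PLX4720 array. Of 75 named PLX4720 changes past the threshold, 35 stayed past it in all 24 alternatives and 37 lost it when 1 of those 8 arrays was left out. Over named genes and alternatives, 2885 values kept their side of the threshold, 426 fell below it, 32 passed newly and 0 reversed. Of the list medians 56 moved by more than the spread between replicates and 664 did not. The number of arrays and the signal over background of dim probes limit the precision.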
